A study of Mus musculus with 7 samples.

Results

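Ighv1, also called the J558 family, is the largest family of heavy chain variable (V) segments in the mouse. It was described here in RNA from splenic B cells that had been activated in culture. The members were the annotated genes whose symbol is Ighv1 followed by a hyphen and a number, and that had at least 10 reads summed over the 7 libraries. This kept 73 of 92 Ighv1 genes, out of 183 Ighv genes and 46959 features in all. Ighv1-57 with 11 summed reads and Ighv1-17 with 12 stood just inside this limit, and Ighv1-8 with 8 and Ighv1-17-1 with 6 just outside it. Of the members, 51 are annotated as functional V segments and 22 as pseudogenes. They lie on the minus strand of chromosome 12 between positions 114469075 and 116010093 of GRCm38, and each has 329 to 415 bases of exon.

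The study set 4 libraries labelled cKO MED1 (a conditional knockout of Med1, which encodes part of Mediator, the complex that links enhancers to RNA polymerase II) against 3 wild-type (WT) libraries. B cells of both groups were purified from spleen and cultured for 4 days with lipopolysaccharide (LPS) at 1 µg/mL and interleukin 4 (IL-4) at 20 ng/mL. The title names expression and hypermutation of the heavy chain genes as the subject. The Cre driver, the strain and the age of the mice are not given in the sources used here, nor whether each replicate was a different mouse. A p-value here therefore stands for the spread among libraries, which may be technical.

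A V segment becomes part of a working antibody gene only after V(D)J recombination has joined it to a D and a J segment, which happens in early B cells in the bone marrow. Each mature B cell then transcribes its joined segment at a high level from the promoter of that V segment, so in a mixed population the V segment reads depend both on how many cells use a segment and on how much each cell transcribes it. In bulk RNA these cannot be told apart. Ighv1 segments are spread over the part of the locus that reaches farthest from the D and J segments, and in bone marrow precursors the recombination of distal V segments is known to need folding of the locus.

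Ighv1 segments resemble each other closely, which bears on how reads are assigned. The sequences below are the mature V regions in the GENCODE M21 transcripts of GRCm38, each of 294 bases, 5′ to 3′. The first is Ighv1-26, the most used member in every library, from chr12:114788372-114788665. The second is Ighv1-14, the pseudogene with the highest mean share over the 7 libraries, from chr12:114646572-114646865.
Ighv1-26: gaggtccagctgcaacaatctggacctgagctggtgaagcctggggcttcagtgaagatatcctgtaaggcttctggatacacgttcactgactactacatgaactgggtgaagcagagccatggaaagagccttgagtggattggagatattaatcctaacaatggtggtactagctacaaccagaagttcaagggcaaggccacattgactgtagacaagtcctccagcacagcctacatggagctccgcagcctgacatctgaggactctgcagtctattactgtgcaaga
Ighv1-14: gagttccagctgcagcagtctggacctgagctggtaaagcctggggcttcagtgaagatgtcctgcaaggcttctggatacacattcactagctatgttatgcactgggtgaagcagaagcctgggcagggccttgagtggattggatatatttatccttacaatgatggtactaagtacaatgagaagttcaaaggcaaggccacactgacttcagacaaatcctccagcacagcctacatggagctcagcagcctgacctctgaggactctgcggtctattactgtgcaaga

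The next are shown because close copies differed in opposite directions or to unlike degrees. Ighv1-23 (chr12:114764450-114764743) and Ighv1-15 (chr12:114657353-114657646) differ at 5 of 294 bases, and Ighv1-37 (chr12:114896238-114896531) and Ighv1-20 (chr12:114723772-114724065) at 4. Capitals mark the bases that differ within each pair.
Ighv1-23: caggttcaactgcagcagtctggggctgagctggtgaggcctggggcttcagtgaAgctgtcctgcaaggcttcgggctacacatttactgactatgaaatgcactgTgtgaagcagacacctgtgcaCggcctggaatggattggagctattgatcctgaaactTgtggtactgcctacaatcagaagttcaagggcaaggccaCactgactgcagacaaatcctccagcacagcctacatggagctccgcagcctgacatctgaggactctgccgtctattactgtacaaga
Ighv1-15: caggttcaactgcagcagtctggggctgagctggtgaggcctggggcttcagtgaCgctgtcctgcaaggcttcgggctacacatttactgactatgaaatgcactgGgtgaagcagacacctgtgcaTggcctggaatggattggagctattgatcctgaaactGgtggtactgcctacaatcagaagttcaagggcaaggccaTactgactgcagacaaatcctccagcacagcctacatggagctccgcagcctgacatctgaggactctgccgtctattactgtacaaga
Ighv1-37: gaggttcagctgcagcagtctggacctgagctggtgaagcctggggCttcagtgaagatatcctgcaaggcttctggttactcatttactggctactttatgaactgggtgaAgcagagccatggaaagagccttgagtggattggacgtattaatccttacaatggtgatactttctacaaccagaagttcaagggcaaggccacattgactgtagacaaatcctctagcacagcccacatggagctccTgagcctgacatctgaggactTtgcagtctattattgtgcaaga
Ighv1-20: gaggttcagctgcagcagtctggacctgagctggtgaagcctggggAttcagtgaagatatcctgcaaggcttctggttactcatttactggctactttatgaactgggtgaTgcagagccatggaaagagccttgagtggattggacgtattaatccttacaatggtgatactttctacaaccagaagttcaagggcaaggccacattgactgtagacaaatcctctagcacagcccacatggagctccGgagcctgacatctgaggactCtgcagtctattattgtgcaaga

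In 69 of the 73 members, no stretch of 150 bases, the length of 1 read, occurs in another Ighv segment. The exceptions were Ighv1-62-2, Ighv1-71, Ighv1-62-3 and Ighv1-72. The median identity of a member to its nearest fellow member was 94.9%, and 36 members had a fellow member at 95% or more. Values of near-identical segments are therefore uncertain. Segments were also counted against the reference genome alone, and the effect of allelic or mutated V sequences on the counts was not tested.

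Libraries held 31937372 to 49603193 recovered reads in cKO MED1 and 54736580 to 61149274 in WT, so every WT library was the deeper. Reads in Ighv genes numbered 73690 to 125061 in cKO MED1 libraries and 158991 to 263739 in WT libraries. Values below are normalised reads (reads scaled to a common library of 48080599) or shares of all Ighv reads in the library. Med1 itself had 2585, 2172, 2249 and 2436 normalised reads in cKO MED1 replicates 1 to 4, against 4755, 4173 and 4210.1 in WT replicates 1 to 3 (log2 fold change -0.89). Sex went largely with genotype. The Y-linked gene Ddx3y had at most 4.07 normalised reads in cKO MED1 replicates 1, 2 and 4, whereas cKO MED1 replicate 3 had 4469.9 and the WT libraries 4496 to 4895. The 8 B cell markers summed to 124500 to 139400 normalised reads in cKO MED1 and 173100 to 187200 in WT, and 5 of the 8 fell. Of the 6 markers of antibody-secreting cells, 2 rose and 2 fell, and their sums overlapped, at 59840 to 82560 in cKO MED1 and 81760 to 124100 in WT. The 5 neutrophil markers summed to 19.0 to 69.5 in cKO MED1 and 2.75 to 10.6 in WT, and 1 rose. The 5 stromal and endothelial markers summed to 1029 to 1175 in cKO MED1 and 1398 to 1639 in WT, and 1 fell. The 4 erythroid markers summed to 98.8 to 413 in cKO MED1 and 57.15 to 143 in WT, and 1 rose. The 7 T cell markers summed to 1025 to 1283 in cKO MED1 and 1248 to 1661 in WT, and 1 fell. Over all tested features, 14.6% fell and 13.4% rose. The part of depth, sex and markers in the results below was not tested, beyond the values given beside them.

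The family as a whole took a smaller part of the heavy chain V reads in cKO MED1 cells. Ighv1 members held 36.8%, 39.9%, 38.1% and 33.5% of all Ighv reads in cKO MED1 replicates 1 to 4, against 60.6%, 59.1% and 58.3% in WT replicates 1 to 3. Every cKO MED1 library was below every WT library, with means of 37.1% ± 2.71 (SD, n = 4) and 59.3% ± 1.18 (SD, n = 3). The difference of -22.3 percentage points had p = 0.0286 in a two-sided exact permutation test, the smallest that the 35 assignments of the libraries allow. The share in cKO MED1 replicate 3, which had Ddx3y at the WT level, was 38.1%, also below all 3 WT libraries.

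Summed Ighv1 normalised reads were 53336, 48691, 62199.6 and 45206 in cKO MED1 libraries, against 79022, 76633 and 122821 in WT libraries. The sum was lower in all 4 cKO MED1 libraries, at 0.564 of the WT mean (exact permutation p = 0.0286). WT replicate 3 set much of the size of this difference, which was -40467 normalised reads over all libraries and -25469 without that library. All Ighv genes together overlapped between the groups, with 141293 ± 17498 normalised reads in cKO MED1 (n = 4) and 156877 ± 46504 in WT (SD, n = 3). V segments outside Ighv1 also overlapped, with 88921 ± 11619 in cKO MED1 and 64049 ± 20545 in WT.

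The 8 heavy chain constant genes gave a second yardstick from the same locus. Their summed reads overlapped between the groups, at 836123 ± 94678 normalised reads in cKO MED1 and 813575 ± 222781 in WT. Per 100 constant gene reads, cKO MED1 libraries had 6.18, 6.58, 6.51 and 5.76 Ighv1 reads and WT libraries 11.6, 11.1 and 11.5. The groups lay apart, with means of 6.26 ± 0.374 and 11.4 ± 0.263 (SD, exact permutation p = 0.0286). Of the constant genes, Ighg2c is the one that C57BL/6 mice carry where some other strains carry Ighg2a. It had 108, 105, 506 and 549 normalised reads in cKO MED1 replicates 1 to 4, against 363, 432 and 745 in WT. Replicates 1 and 2 of cKO MED1 were the lowest, and replicates 3 and 4 lay within the WT range.

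**Figure D1:**
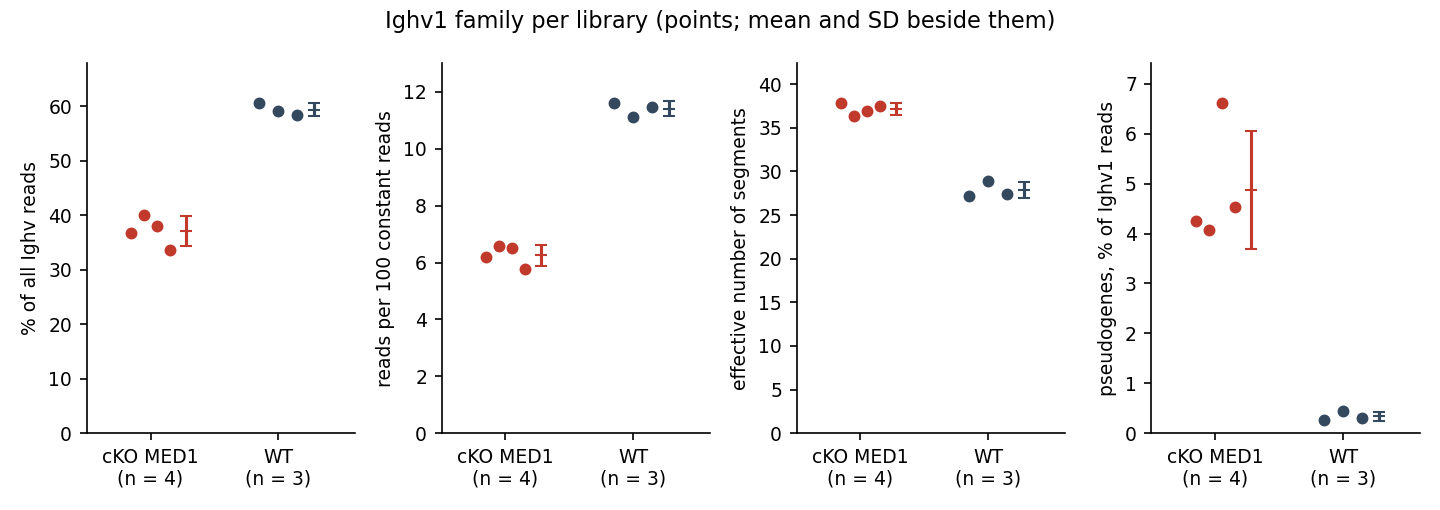
Each point is 1 library, cKO MED1 (n = 4) left of WT (n = 3), with the mean and SD beside the points. From left to right the axes give the Ighv1 share of all Ighv reads, Ighv1 reads per 100 constant gene reads, the effective number of Ighv1 segments and the pseudogene share of Ighv1 reads, and in each panel the groups do not overlap.

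Member by member, the fall was not uniform. Of 67 members with enough reads for the test, 28 fell, 19 rose and 20 did not pass (limma, Benjamini-Hochberg adjusted p under 0.05 over all 18062 features). The called members were 70.1% of those tested, where the background over all features was 28.0%, with 14.6% lower and 13.4% higher. The edgeR quasi-likelihood test on recovered reads also gave 28 members that fell and 19 that rose, against a background of 29.6%. In 44 of the 47 called members the normalised reads of the groups did not overlap, which follows largely from the call itself. The groups did not overlap in 39.1% of all tested features, called or not, so that share is not a matching background. Changes of at least 2-fold were found in 17 members that rose and 17 that fell. The share of all features with called changes that large was not counted. The median log2 fold change was -0.39 over the tested members and 0.04 over all tested features. As shares of Ighv reads, 29 members were lower in every cKO MED1 library than in any WT library, 23 were higher in every one and 21 overlapped. Over all 141 Ighv genes with at least 10 reads, the share lay apart in 73.0%, lower in 27.0% and higher in 46.1%.

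Sex limits these counts. In a fit with sex as a covariate, the genotype difference rests on the single cKO MED1 library with Ddx3y reads, and 12 members rose and 0 fell in limma, where 228 of all features passed. At an unadjusted p under 0.05, 17 members (25.4%) were lower and 19 (28.4%) higher there, against 11.4% and 10.8% of all features. The 28 members that fell without the covariate all had a negative log2 fold change with it. The same cKO MED1 library had entered the calls without the covariate, so this shared sign was largely set beforehand and is no separate support.

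Most of the fall lay in the heavily used members. Members were banded by mean share over all 7 libraries, so the bands used the values compared here. Several that fell, such as Ighv1-15 (0.872% in cKO MED1 and 1.42% in WT), reached 1% only through WT. Ighv1-4 (1.89% and 0.622%) reached it only through cKO MED1. Of the 16 members with a mean share of at least 1%, 14 fell and 2 rose. Together they held 23.9% ± 2.16 of Ighv reads in cKO MED1 and 43.6% ± 1.06 in WT. Of the 31 members between 0.1% and 1%, 13 fell and 6 rose, with 12.3% ± 0.693 of the reads in cKO MED1 and 15.4% ± 0.540 in WT. Of the 26 members under 0.1%, 20 were tested, and 1 fell and 11 rose. Most members of this band, and most of those that rose in it, are annotated as pseudogenes, which are described below.

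Ighv1-26 was the most used member in all 7 libraries, with 3.09%, 3.82%, 3.54% and 2.75% of Ighv reads in cKO MED1, against 8.66%, 8.0% and 8.04% in WT. The groups were far apart, and its normalised reads had a log2 fold change of -1.45 with SE 0.18 (limma adjusted p = 0.000471). Ighv1-82 (115952538 to 115953005) had 1.91%, 1.82%, 2.03% and 1.32% in cKO MED1 and 5.16%, 4.53% and 5.38% in WT. It showed the largest fall among the named members, at -1.64 (SE 0.23, limma adjusted p = 0.00125). Ighv1-53 (115158403 to 115158835) had 1.97%, 2.19%, 2.10% and 1.93% in cKO MED1, against 4.03%, 4.01% and 4.08% in WT. Its shares were tight within each group and its log2 fold change was -1.10 (SE 0.17). In WT libraries the order Ighv1-26, Ighv1-82, Ighv1-53 had no overlap between neighbours. In cKO MED1 libraries Ighv1-26 stood above the rest, while Ighv1-53 and Ighv1-9 overlapped.

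A further 6 of the 10 most used members also fell. Ighv1-22 averaged 1.51% ± 0.179 in cKO MED1 and 3.30% ± 0.0964 in WT. Ighv1-80 averaged 1.19% ± 0.260 in cKO MED1 and 3.19% ± 0.0791 in WT. Ighv1-18, Ighv1-64 and Ighv1-55 had log2 fold changes of -0.80, -1.17 and -1.24. Ighv1-9 fell least, with 1.96%, 2.15%, 2.15% and 1.89% in cKO MED1 and 2.86%, 2.60% and 2.64% in WT. Its shares lay apart, but its normalised reads overlapped (log2 fold change -0.53, limma adjusted p = 0.0350), and the call was lost without WT replicate 3, without cKO MED1 replicate 2 and without cKO MED1 replicate 4. Among less used members that passed and had at least 50 normalised reads in WT, the largest falls were in Ighv1-76 (-1.43) and Ighv1-61 (-1.41).

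Ighv1-7 was the exception among the 10. It had 1.66%, 2.07%, 1.71% and 2.12% of Ighv reads in cKO MED1, against 0.919%, 1.17% and 0.980% in WT. Every cKO MED1 library was above every WT library, and the log2 fold change of normalised reads was 0.76 with SE 0.15 (limma adjusted p = 0.00676). The 10 together held 17.9% ± 1.69 of Ighv reads in cKO MED1 (n = 4) and 35.4% ± 1.15 in WT (SD, n = 3). Ranking by reads per kilobase of exon gave the same 10 members.

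**Figure D2:**
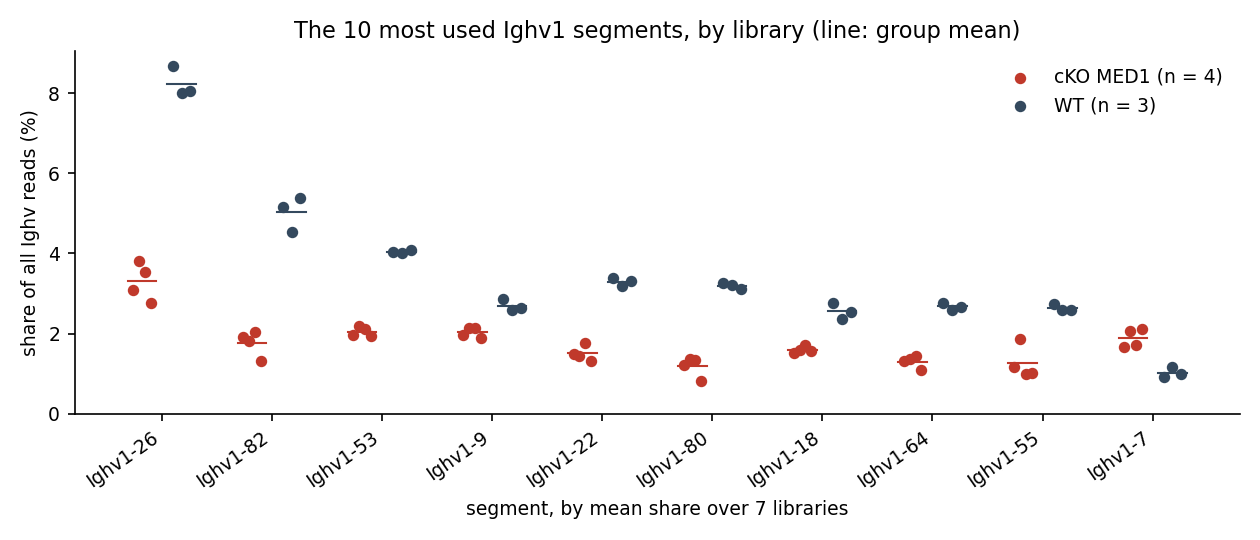
Shares of all Ighv reads (%, vertical axis) of the 10 most used Ighv1 segments, with 1 point per library and a line at each group mean, cKO MED1 (n = 4) left of WT (n = 3). In 9 segments every cKO MED1 point lies below every WT point, from Ighv1-26 at 2.75% to 3.82% against 8.0% to 8.66%, and in Ighv1-7 every cKO MED1 point lies above.

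Reads were spread more evenly over the family in cKO MED1 cells. The effective number of segments, which is the number of equally used segments that would give the same Shannon entropy, was 37.9, 36.4, 36.9 and 37.5 in cKO MED1, against 27.2, 28.9 and 27.4 in WT. All 4 cKO MED1 libraries were higher (exact permutation p = 0.0286). The single most used member took 8.87% ± 0.663 of Ighv1 reads in cKO MED1 and 13.9% ± 0.380 in WT (SD, exact permutation p = 0.0286). Between libraries of different genotype, 18.0% to 26.1% of Ighv1 reads lay on different segments. This was 6.97% to 10.3% between cKO MED1 libraries and 3.12% to 4.12% between WT libraries, so the cKO MED1 libraries varied more among themselves.

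Ighv1 pseudogenes moved the other way from the main functional segments, as did the tested pseudogenes outside Ighv1, given below. Pseudogene segments are annotated as unable to encode a working antibody chain, and their reading frames were not examined here. Together the Ighv1 pseudogenes held 1.81% of Ighv reads in cKO MED1, of which Ighv1-14 alone held 0.807%. Of 22 members annotated as pseudogenes, 17 were tested, and 12 rose, 0 fell and 5 did not pass in limma. Some that rose, such as Ighv1-21 with 3 to 10 reads in WT, passed the filter only through cKO MED1. Such members could hardly have been called lower. With all 22 in an unfiltered limma fit, 13 rose and 0 fell, where 5.75% of all features rose and 8.80% fell. These 22 still had to reach 10 summed reads, which some did mainly through cKO MED1. With sex as a covariate, 7 rose. Pseudogenes made up 4.25%, 4.08%, 6.62% and 4.53% of Ighv1 reads in cKO MED1, against 0.261%, 0.443% and 0.309% in WT. Every cKO MED1 library was above every WT library (exact permutation p = 0.0286), with summed normalised reads of 2605 ± 1017 in cKO MED1 and 308 ± 91.1 in WT. Of the 51 functional members, 50 were tested, and 28 fell and 7 rose. Their summed share was 35.3% ± 2.58 in cKO MED1 and 59.1% ± 1.20 in WT.

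In cKO MED1 libraries Ighv1-14 was the most used pseudogene, whereas in WT the mean share of Ighv1-2 was slightly higher, at 0.0364%. Ighv1-14 had 783, 1062, 1107 and 556 recovered reads in cKO MED1, against 19, 110 and 62 in WT, although the WT libraries were deeper. Its share was 0.807% ± 0.0765 in cKO MED1 and 0.0342% ± 0.0310 in WT, with a log2 fold change of 4.82 and SE 0.46 (limma adjusted p = 9.08e-05). Ighv1-33 (114843651 to 114844083) had 154, 176, 159 and 112 reads in cKO MED1, against 6, 11 and 9 in WT (log2 fold change 4.73, SE 0.25). Ighv1-21 had 75, 108, 141 and 79 reads in cKO MED1 and 3, 10 and 7 in WT (log2 fold change 4.53). Both were low in all WT libraries and well above them in all cKO MED1 libraries. Ighv1-73 rose by 3.72 on the log2 scale, with 40 to 83 reads in cKO MED1 and 3 to 10 in WT.

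Ighv1-86 (116009659 to 116010093), the member farthest from the D and J segments, had a rise whose size depended on 1 library. It had 32, 29, 1084 and 26 reads in cKO MED1, against 0, 5 and 35 in WT. Normalised reads had a log2 fold change of 4.21 with SE 1.30 (limma adjusted p = 0.0347). Without cKO MED1 replicate 3 it was 2.95 with limma adjusted p = 0.0607. The call was also lost without WT replicate 1, without WT replicate 2 and without cKO MED1 replicate 4. All 4 cKO MED1 libraries were above all WT libraries in normalised reads, with 28.3 to 47.6 in replicates 1, 2 and 4 and at most 27.9 in WT. The pseudogene share of Ighv1 reads without cKO MED1 replicate 3 differed by 3.95 percentage points, against 4.53 with it.

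Reads from genes that B cells do not use give a scale for such low levels. Over 1816 olfactory and vomeronasal receptor genes, the mean was 0.285 to 0.912 reads per kilobase of exon in cKO MED1 libraries and 0.251 to 0.457 in WT libraries. Members have only 329 to 415 bases of exon, so subtracting so small a background could hardly alter a call. With it subtracted per library, 19 members rose and 28 fell, as before. Reads assigned to the wrong V segment are not part of this background.

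**Figure D3:**
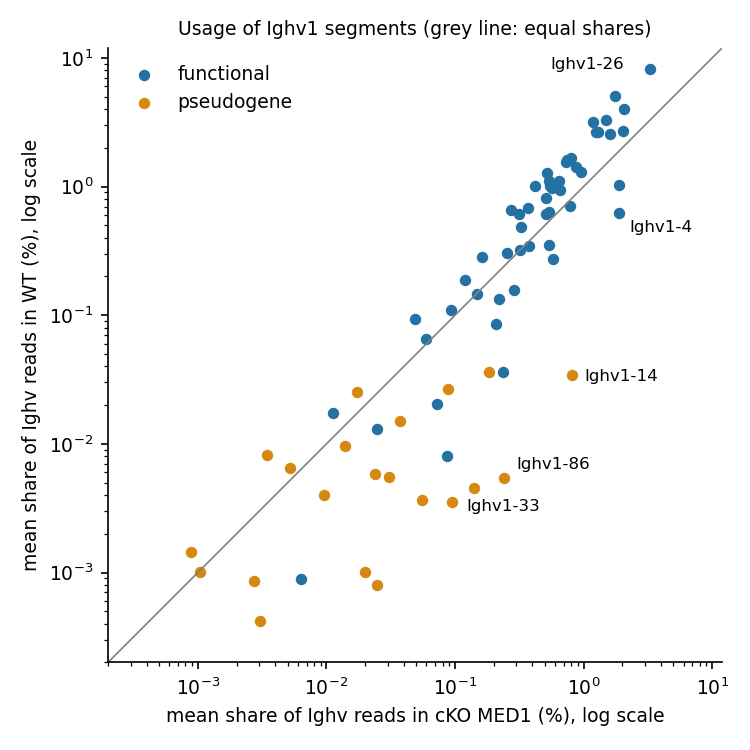
Mean share of Ighv reads of each segment in cKO MED1 (horizontal, %, log scale, n = 4) and in WT (vertical, %, log scale, n = 3), with functional segments in blue and pseudogenes in orange. Points below the grey line of equal shares are higher in cKO MED1, such as Ighv1-14 at 0.807% against 0.0342% and Ighv1-4 at 1.89% against 0.622%, and Ighv1-26 lies above it at 3.30% against 8.23%; members with a mean of 0 in WT are not drawn.

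Position along the locus went with the direction of change. The 36 members farthest from the D and J segments held 47.6%, 48.6%, 48.7% and 43.8% of Ighv1 reads in cKO MED1, against 56.7%, 56.3% and 56.9% in WT. All 4 cKO MED1 libraries were lower (exact permutation p = 0.0286). As a share of all Ighv reads, these 36 members fell to 17.5% ± 2.06 in cKO MED1, against 33.6% ± 0.688 in WT. The 37 nearer members held 19.5% ± 0.714 in cKO MED1 and 25.7% ± 0.541 in WT. Among the farther members, 34 were tested, and 20 fell and 5 rose, with a median log2 fold change of -0.92. Among the nearer ones, 33 were tested, and 8 fell and 14 rose. Counting functional segments alone, 20 of 28 tested farther members fell and 1 rose, whereas 8 of 22 nearer ones fell and 6 rose.

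The 4 members nearest to the D and J segments, a group picked after the values were seen, all rose. Ighv1-2 (114469075 to 114469535), a pseudogene, rose by 2.18 on the log2 scale (SE 0.23). Ighv1-4 had 1.74%, 2.16%, 1.69% and 1.97% of Ighv reads in cKO MED1, against 0.543%, 0.716% and 0.606% in WT. Its groups lay far apart, with a log2 fold change of 1.48 and SE 0.16 (limma adjusted p = 0.000181). Ighv1-5 averaged 0.580% ± 0.0921 in cKO MED1 and 0.272% ± 0.0624 in WT (log2 fold change 0.99), and Ighv1-7, described above, completes the group. Together they held 4.54% ± 0.366 of Ighv reads in cKO MED1 and 1.95% ± 0.267 in WT. The next member along the locus, Ighv1-9, was the first that fell. In the farther part, Ighv1-67 was the functional member that rose, at 1.18 (SE 0.18, limma adjusted p = 0.00167).

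**Figure D4:**
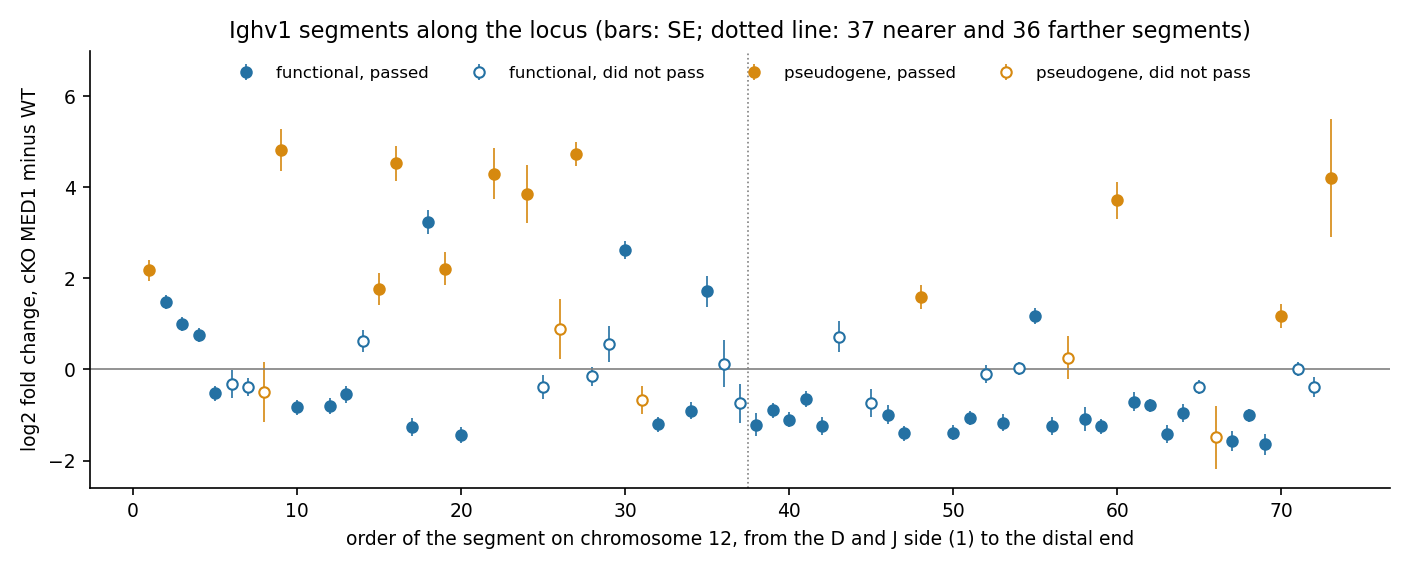
Log2 fold change of normalised reads, cKO MED1 minus WT (vertical axis, bars are SE), of the 67 tested Ighv1 segments. Their order on chromosome 12 runs from 1, the member nearest to the D and J segments, to 73 at the far end. Filled points passed at limma adjusted p under 0.05, blue points are functional segments and orange points are pseudogenes; the first 4 points are above 0, and 20 of the 28 functional points right of the dotted line are filled and below 0.

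Close copies did not always change together. Ighv1-15 had 0.754%, 0.904%, 0.988% and 0.843% of Ighv reads in cKO MED1, against 1.53%, 1.43% and 1.30% in WT. It fell, with a log2 fold change of -0.83 and limma adjusted p = 0.00583. Its near copy Ighv1-23 had 85, 123, 79 and 76 reads in cKO MED1 and 11, 19 and 17 in WT, and rose by 3.24 (SE 0.26, limma adjusted p = 3.94e-05). Ighv1-37 had 213, 296, 270 and 214 reads in cKO MED1, against 55, 83 and 70 in WT, a log2 fold change of 2.62 (SE 0.20). Its near copy Ighv1-20 had 272, 260, 235 and 171 reads in cKO MED1 and 183, 263 and 367 in the deeper WT libraries. The log2 fold change of Ighv1-20 was 0.63 and did not pass (limma adjusted p = 0.0656). By share of Ighv reads, Ighv1-20 was higher in every cKO MED1 library, at 0.189% to 0.254% against 0.0967% to 0.165% in WT. The closest pair, Ighv1-62-2 and Ighv1-71 at 99.7% identity, both fell, by 1.39 and 1.09 on the log2 scale. Only 11.8% and 3.81% of their 150-base stretches are unique among Ighv segments, so reads of this pair could hardly be told apart. Ighv1-52 and Ighv1-61 at 98.6% identity both fell as well, by 0.89 and 1.41. The difference between the members of a pair was not itself tested.

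Among the 20 members that did not pass were some with steady values and some that varied from library to library. Ighv1-66 had 0.742%, 0.852%, 0.844% and 0.715% in cKO MED1, against 0.730%, 0.781% and 0.624% in WT (log2 fold change 0.03, SE 0.14). The groups overlapped, as they did in Ighv1-84 (log2 fold change 0.00, SE 0.15). Ighv1-47 had 1.11%, 0.233%, 0.164% and 0.631% in cKO MED1, against 0.290%, 0.492% and 0.282% in WT, and its cKO MED1 libraries spanned the whole WT range (log2 fold change 0.12, SE 0.51).

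V segments outside Ighv1 differed from the family in the direction of their calls. Of 58 tested, 31 rose and 2 fell, with a median log2 fold change of 0.71. Their share of Ighv reads is the complement of the Ighv1 share tested above. Ighv9 held 10.7% ± 1.30 in cKO MED1 and 5.36% ± 0.807 in WT. Ighv14 held 5.75% ± 0.792 in cKO MED1 and 2.89% ± 0.260 in WT. Ighv6 overlapped, with 5.51% ± 0.374 in cKO MED1 and 5.73% ± 0.971 in WT. Pseudogenes outside Ighv1 rose too, so their rise was not particular to Ighv1. All 5 tested were called higher, where 13.4% of all features were. Their reads in WT were few, so some may have passed the filter only through cKO MED1, which was not checked. Of 10 by share, 7 were higher, 1 lower and 2 overlapped, where 46.1% of all Ighv genes with at least 10 reads were higher. They held 3.82% ± 3.21 of Ighv reads in cKO MED1 (8.64% in replicate 4) and 0.118% ± 0.0679 in WT. Of 53 tested functional segments outside Ighv1, 26 rose and 2 fell.

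A list of 19 genes known for V promoter octamer binding, V(D)J recombination or folding of the heavy chain locus was read from the same fit. Of 17 tested, 2 rose and 7 fell (background 13.4% and 14.6%). Those that fell were Pax5, a B cell identity factor (-0.37), Yy1 (-0.25), the insulator protein gene Ctcf (-0.35), Ikzf1 (-0.46), and the cohesin genes Rad21 (-0.33), Smc1a (-0.45) and Smc3 (-0.43), all as log2 fold changes. Pou2f1, which encodes the octamer factor Oct-1, rose by 0.30. The recombinase gene Rag1 rose by 2.26, but at 9.49 to 36.6 normalised reads in cKO MED1 and 1.38 to 3.26 in WT. Pou2f2 and Pou2af1, an octamer factor and its B cell coactivator, did not pass, with log2 fold changes of 0.07 (SE 0.09) and 0.17 (SE 0.12).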

How the data were processed

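The authors deposited 1 table of signal per gene, made of read counts divided by 1 size factor per library. The values showed this, since 100% were whole multiples of a library's smallest step within 1e-06, which gave back the whole reads. The submitters' processing notes name the build GRCm38 and the tools DESeq2, R 3.4, STAR 2.4.0a, Subread 1.5.0-p3 and featureCounts. Whether counting used strand is not stated there. Per the labels' protocols, libraries were stranded and rRNA-depleted, with 14 PCR cycles and paired 150-bp reads.

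Recovered reads (31937372 to 61149274 per library) were scaled with TMM factors (edgeR 4.0.16), filtered by filterByExpr to 18062 features, and tested with limma 3.58.1 (R 4.3.3, intensity trend) on log2(normalised reads + 1), which understates changes of low genes. The Benjamini-Hochberg threshold was 0.05. The edgeR quasi-likelihood test on recovered reads called 5340 features against 5065. Scripts were tested on simulated data. The 7 library measures were compared with two-sided exact permutation tests over 35 assignments, and all 7 had adjusted p = 0.0286. SDs include counting error, and read-based precision covers counting error only. Biotypes, positions, exons and sequences came from GENCODE M21 by symbol.

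Named members were the 10 most used, the 5 called members that rose most and the 5 that fell most, with at least 50 normalised reads in the higher group, the top member of each library and the most used pseudogene. Ighv1-2, Ighv1-4, Ighv1-5, Ighv1-15, Ighv1-20, Ighv1-23, Ighv1-36, Ighv1-37, Ighv1-47, Ighv1-52, Ighv1-62-2, Ighv1-66, Ighv1-67, Ighv1-71 and Ighv1-84 were named after their values were seen. The members and lists were chosen with earlier results of these data known. Alternatives were other scalings, filters, tools and pseudocount, a threshold of 0.01, background subtraction, sex as covariate, the replicate block and each library left out.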

Additional observations from a re-analysis of the deposited data

Results flagged for a closer look

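In 3 of 38 groups of cKO MED1 libraries checked, 1 library stood far from the other 3, and chance alone would flag about 1 in 20 groups. Ighv1-86 had a share of 0.874% of Ighv reads in cKO MED1 replicate 3, against 0.0299%, 0.0232% and 0.0353% in replicates 1, 2 and 4. Ighv1-36 had 0.604% in cKO MED1 replicate 4, against 0.199%, 0.200% and 0.156% in replicates 1 to 3, and the member did not pass the test (log2 fold change 0.55, limma adjusted p = 0.300). Ighv1-76 had 0.418% in cKO MED1 replicate 4, below 0.551%, 0.569% and 0.544% in replicates 1 to 3, and all 4 were below the WT libraries at 1.31%, 1.19% and 1.34%.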

How the results depend on the processing

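With sex as a covariate the counts moved to 12 members higher and 0 lower, and no other tool was run with that covariate. No member that had fallen passed then, nor did Ighv1-7, with Ighv1-26 at a log2 fold change of -1.12 (limma adjusted p = 0.0615). Under the other alternatives, including RLE factors, total reads, the authors' size factors, DESeq2, edgeR and each library left out, the counts stayed within 1.5 times of 19 and 28, and no called member was called in the opposite direction. Leaving out 1 library gave 17 to 20 higher and 24 to 29 lower members. It moved the difference (cKO MED1 minus WT) of the Ighv1 share between -23.2 and -21.1 points, of summed normalised reads between -48564 and -25469, and of reads per 100 constant gene reads between -5.29 and -4.98. The ranges were 9.01 to 9.85 for the effective number, -5.23 to -4.78 for the most used member, -9.99 to -8.35 for the farther members and 3.95 to 4.80 for pseudogenes, the last 3 as points of Ighv1 reads. The smallest p these designs allow is 0.0667 or 0.1, so none could pass. The same holds without cKO MED1 replicates 3 and 4 (p = 0.1, exact permutation), which gave -21.0, -41812, -5.02, 9.28, -4.89, -8.54 and 3.83 in that order of measures.

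Whether replicate numbers pair the libraries was not tested. Correlations of deviations were 0.515, -0.235 and 0.163 for like numbers 1 to 3, and -0.584 to 0.401 for unlike numbers. A replicate block gave 19 higher and 31 lower members, and paired differences of -21.1, -38083, -4.98, 9.22, -4.78, -8.35 and 4.65 in the same order (exact sign-flip permutation p = 0.25, the smallest 3 pairs allow). Over all features the median log2 fold change was -0.21 when scaled by total reads and 0.35 without the filter. Depth limits members with few reads: 6 of 73 were not tested.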
